A study of Mus musculus with 6 samples.

Results

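The genes described here encode subunits of the receptors through which neurons respond to glutamate, GABA, glycine and acetylcholine. Members were taken by symbol from the protein-coding genes of GENCODE M21: Gria, Grik, Grin and Grm for glutamate, Gabra, Gabrb, Gabrg, Gabrd and Gabbr for GABA, Glra and Glrb for glycine, and Chrna, Chrnb and Chrm for acetylcholine. This gave 62 of the 48526 genes in the deposited table, with 24 for glutamate, 15 for GABA, 5 for glycine and 18 for acetylcholine. RNA was sequenced from neural progenitors made in adherent culture from mouse embryonic stem cells (mESCs) of 2 lines, with 3 libraries each. The control line is Dmrta2 flox/flox, in which recombinase sites flank part of the gene, and the other is labelled -/- for Dmrta2, a transcription factor of dorsal telencephalic progenitors. Both groups were differentiated in N2B27 medium with LDN193189 (100 nM) and SB431542 (10 µM) until day 4, XAV939 (1 µM) until day 6 and cyclopamine (1 µM) from day 2, were replated on day 5 and were harvested on day 8. Each genotype is represented by a single line, so line and genotype cannot be told apart, and p-values measure only the spread between samples of a line.

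Ionotropic receptors are ion channels assembled from several subunits around a pore, so the subunits a cell transcribes set which channels it can build. AMPA, kainate and NMDA receptors are the cation channels of glutamate, GABA-A and glycine receptors are chloride channels, and nicotinic receptors are cation channels opened by acetylcholine. The metabotropic glutamate receptors, GABA-B receptors and muscarinic receptors signal instead through G proteins. Many of these genes are switched on when progenitors become neurons, and several subunits are exchanged for others as neurons mature.

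Library values are listed for A, B and C in that order, first for flox/flox and then for the libraries labelled -/-. Total counts lay between 24565560 and 39646793 reads, so that 1 CPM (a read count scaled to the size of its library) stood for 25.1 to 39.3 reads. Dmrta2 itself was higher in the libraries labelled -/- (409, 414 and 439 CPM) than in flox/flox (85.2, 75.1 and 79.2 CPM). The count covers the whole gene and so checks nothing about the deletion, and all directions below are those of the libraries labelled -/-. Sox2, Nes and Vim, markers of neural progenitors, were abundant in all libraries, with a lowest value of 179 CPM for Sox2. Of 15 neuron markers 13 rose and 0 fell in the same comparison, with a summed level of 1951, 2372 and 3046 CPM in flox/flox and 3663, 4083 and 6035 CPM in -/-. Within each group library C held the highest sum, and the groups did not overlap. Of 10 progenitor markers 6 rose and 4 fell, Sox2, Nes and Vim among the latter, with sums between 3379 and 3925 CPM in flox/flox and between 3272 and 3574 CPM in -/-. The neuron markers thus moved with the comparison, and their part in the receptor results was not tested. In bulk RNA more cells of a type and more RNA per cell cannot be told apart. Of the 12 glial markers 9 were tested, 2 rose and 1 fell, and of the 11 muscle and mesoderm markers 6 were tested, 0 rose and 3 fell. Of the 10 neural crest and peripheral neuron markers 9 were tested, 2 rose and 1 fell. All 8 pluripotency markers were tested, 0 rose and 4 fell. Over all tested genes 17.9% rose and 17.4% fell. These calls do not measure how abundant a cell type was.

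The promoters of 6 members on which the results turn are shown, as the 250 bases before the RefSeq start (GRCm38.p6), 5′ to 3′ on the strand of the gene. All 6 lie on the minus strand, and that of Chrna4 falls inside the longer GENCODE span of its gene, while that of Chrnb4 overlaps the GENCODE span in part. Chrna4 (chr2:181039178-181039427) and Chrnb2 (chr3:89764633-89764882) encode the main nicotinic subunits of the brain and rose together. Chrna3 (chr9:55026563-55026812) and Chrnb4 (chr9:55048545-55048794) are chromosomal neighbours of which Chrnb4 alone passed the test. Grm2 (chr9:106656110-106656359) and Gria2 (chr3:80802836-80803085) are glutamate receptor genes that rose. Capitals mark matches, on either strand, to the E-box letters CAGCTG and CATCTG, which proneural bHLH factors can bind, and to TTCAGCACC and GGACAGC, the left and right segments of the element bound by REST, a repressor of neuronal genes in other cells.
Chrna4: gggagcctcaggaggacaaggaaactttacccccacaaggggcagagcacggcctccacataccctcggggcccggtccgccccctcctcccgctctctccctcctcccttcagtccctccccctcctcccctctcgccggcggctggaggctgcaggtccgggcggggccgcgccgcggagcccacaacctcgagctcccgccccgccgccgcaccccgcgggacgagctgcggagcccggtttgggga
Chrnb2: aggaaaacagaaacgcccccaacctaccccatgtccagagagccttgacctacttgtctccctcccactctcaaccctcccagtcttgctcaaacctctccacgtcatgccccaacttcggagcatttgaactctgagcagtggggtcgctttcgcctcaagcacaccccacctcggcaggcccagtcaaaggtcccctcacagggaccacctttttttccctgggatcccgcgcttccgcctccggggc
Chrna3: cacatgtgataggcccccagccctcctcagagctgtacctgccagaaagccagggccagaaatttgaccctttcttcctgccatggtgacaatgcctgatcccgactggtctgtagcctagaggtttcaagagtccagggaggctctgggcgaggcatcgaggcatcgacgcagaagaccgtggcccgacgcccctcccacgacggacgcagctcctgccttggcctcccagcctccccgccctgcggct
Chrnb4: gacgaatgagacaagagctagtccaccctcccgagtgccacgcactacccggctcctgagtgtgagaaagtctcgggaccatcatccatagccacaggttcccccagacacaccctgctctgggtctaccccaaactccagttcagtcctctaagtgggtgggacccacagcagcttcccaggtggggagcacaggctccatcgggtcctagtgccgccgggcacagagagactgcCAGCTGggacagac
Grm2: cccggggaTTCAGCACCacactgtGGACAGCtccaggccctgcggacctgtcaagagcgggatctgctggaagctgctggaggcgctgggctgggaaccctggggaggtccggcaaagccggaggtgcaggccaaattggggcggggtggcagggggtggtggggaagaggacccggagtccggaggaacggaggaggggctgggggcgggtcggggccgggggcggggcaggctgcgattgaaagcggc
Gria2: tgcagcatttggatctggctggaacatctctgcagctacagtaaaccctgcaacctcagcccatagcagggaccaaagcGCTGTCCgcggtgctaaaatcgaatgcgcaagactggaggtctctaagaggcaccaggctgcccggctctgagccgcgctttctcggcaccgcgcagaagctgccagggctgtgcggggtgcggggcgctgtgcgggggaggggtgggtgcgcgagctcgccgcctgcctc

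The 250-base windows of Chrna4, Chrnb2 and Chrna3 held none of the 4 motifs. Chrnb4 held CAGCTG from 14 to 9 bases before its start, a motif found in 13.0% of the 32851 promoter windows of the table. Grm2 held both segments of the REST element in the same orientation, the left segment from 242 to 234 bases and the right segment from 226 to 220 bases before the start. The segments were searched singly, with no spacing set between them, so their joint presence is no match to the whole element. The left segment occurs in 0.301% of all windows and the right segment in 5.28%. Gria2 held the right segment on the opposite strand, 171 to 165 bases before its start. Promoters were found for 44 of the 62 members (52 windows), and among them CAGCTG was present in Chrna1, Chrna9, Chrnb4 and Glra3, CATCTG (14.4% of all windows) in Gabra5 and Grin3b, the left segment in Grm2 alone and the right segment in Glra2, Glrb, Gria2 and Grm2. Other spellings of the E-box were not searched. A match describes letters and shows no binding.

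Of the 62 receptor genes, 21 rose, 7 fell, 21 were tested without passing the threshold and 13 had too few reads to be tested (adjusted p under 0.05 in edgeR's quasi-likelihood test, over 20549 genes). Rises made up 42.9% of the 49 tested members, where 17.9% of all tested genes and 20.5% of the protein-coding ones rose. In either direction 28 of the 49 were called, against 35.3% of all tested genes and 40.5% of the protein-coding ones. Falls made up 14.3%, close to the 17.4% of all tested genes, so that the number of falls is no result about these genes. The low-count filter keeps a gene that has reads in either group, which bears on these shares, and not only for the families with untested members. All 24 glutamate genes were tested, but Grm5 held 6, 3 and 1 reads in flox/flox against 33, 27 and 58 in -/-. Grm7 held 5, 6 and 9 against 18, 18 and 18. Under the stricter 1 CPM filter 10 glutamate genes rose instead of 12 and 3 fell instead of 4. The calls lost were the rises of Grm5 and Grm7 and the fall of Grm6. The median log2 fold change of the 49 was 0.57, against -0.0025 over all tested genes. For 32 of the 49 (65.3%) every CPM value of one group lay above all those of the other, as it did for 51.0% of all tested genes. Without flox/flox B 15 members rose and 3 fell, where 2315 of all tested genes rose, and without -/- B 18 of the 21 rises remained and 3 of the 7 falls.

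**Figure D1:**
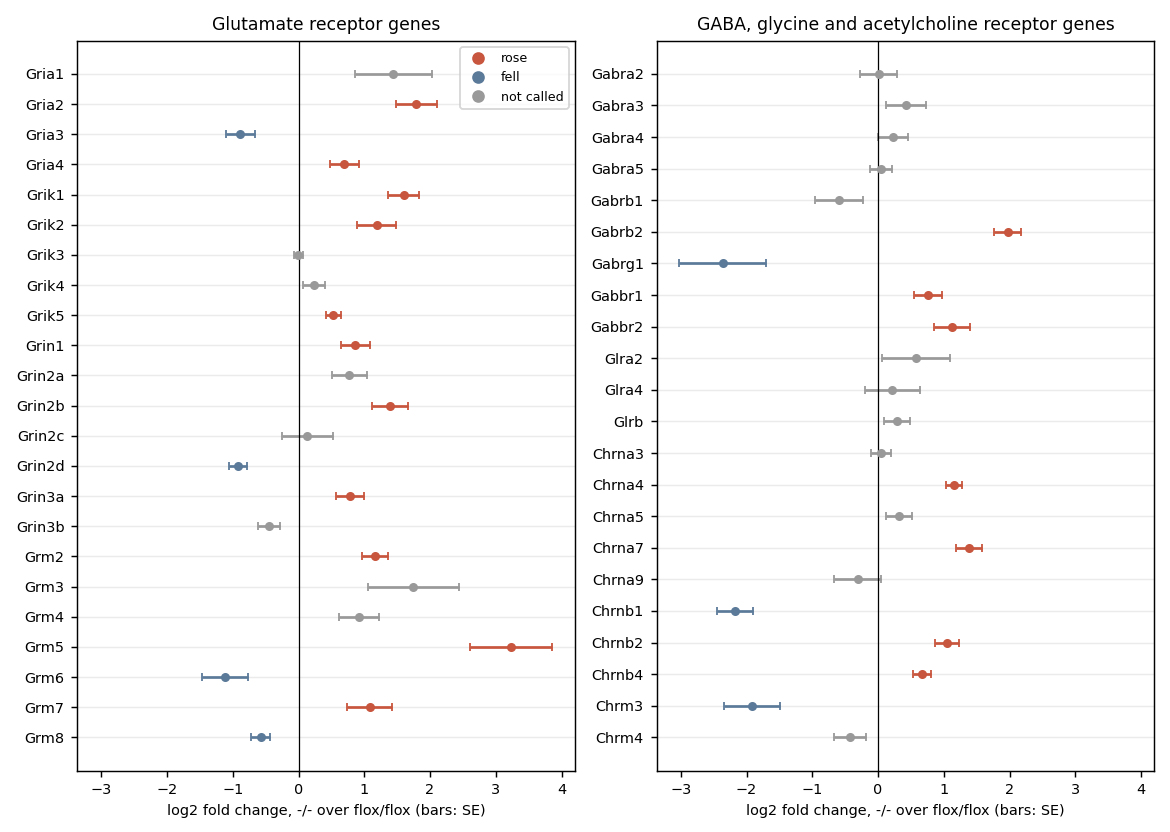
Log2 fold change (-/- over flox/flox) of the tested receptor genes described here, with the standard error as bars, coloured by whether the gene rose, fell or did not pass the threshold. Most coloured points lie to the right of 0, and the highest values drawn are those of Grm5 (3.23), Gabrb2 (1.97) and Gria2 (1.79).

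By transmitter, 12 of 24 glutamate receptor genes, all of them tested, rose and 4 fell. Of the 15 GABA receptor genes 12 were tested, 5 rose and 1 fell. Of the 5 glycine receptor genes 3 were tested, 0 rose and 0 fell. Of the 18 acetylcholine receptor genes only 10 were tested, 4 rose and 2 fell. The shares to set beside the tested genes are the 17.9% of all tested genes that rose and the 17.4% that fell. Medians over the tested genes were 0.82 for glutamate, 0.40 for GABA, 0.29 for glycine and 0.18 for acetylcholine. Summed per length (RPKM, CPM per kilobase of annotated exon), nicotinic receptors were the most abundant class, at 23.4 ± 0.849 RPKM in flox/flox and 37.4 ± 5.38 RPKM in -/- (SD, n = 3). Kainate receptors followed with 18.1 ± 1.42 and 25.3 ± 3.41 RPKM, then GABA-B with 10.5 ± 2.15 and 17.9 ± 4.81 RPKM and GABA-A with 10.4 ± 1.22 and 19.4 ± 5.33 RPKM. The sums of these 4 classes and of the metabotropic glutamate receptors (6.47 ± 1.82 and 12.2 ± 2.15 RPKM) were higher in every library labelled -/- than in any flox/flox library. Those of AMPA receptors (5.16 ± 0.921 and 6.39 ± 1.49 RPKM), NMDA receptors (2.69 ± 0.177 and 2.78 ± 0.454 RPKM), glycine receptors (2.24 ± 0.525 and 2.88 ± 0.400 RPKM) and muscarinic receptors (2.53 ± 0.692 and 1.55 ± 0.320 RPKM) overlapped between the groups. The largest part of the NMDA sum was Grin3b, at 1.33 ± 0.191 RPKM in flox/flox and 0.981 ± 0.135 RPKM in -/-. Exons of Tmem259 overlap 32.1% of the exonic bases of Grin3b, so the NMDA sum may hold reads of that neighbour. An NMDA sum without Grin3b is not given.

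**Figure D2:**
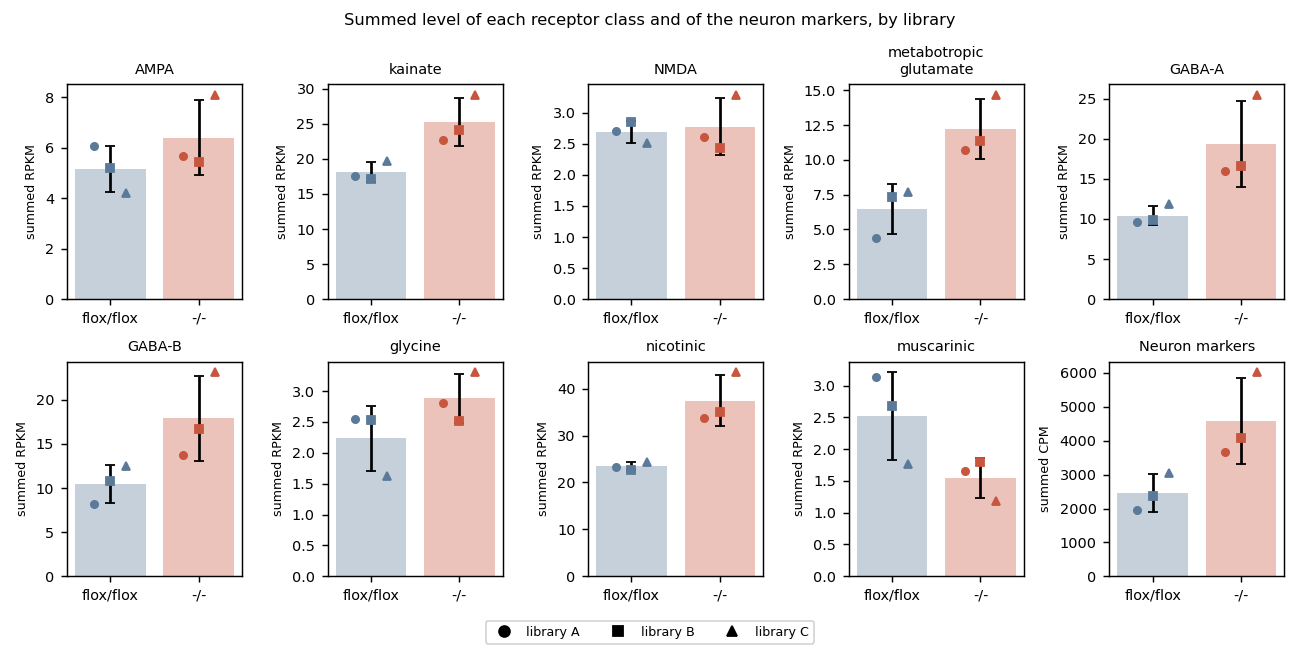
Summed level of each receptor class in RPKM, and of 15 neuron markers in CPM, with bars for the mean, error bars for the SD and a point for each library (circle A, square B, triangle C). Nicotinic receptors reach 33.7 to 43.6 RPKM in -/- against 22.7 to 24.4 RPKM in flox/flox, while the AMPA and NMDA sums overlap, and -/- C is the highest library for all classes but muscarinic. The NMDA sum includes Grin3b, which may hold reads of its neighbour Tmem259.

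AMPA receptor subunits moved in opposite directions. Gria2 encodes the subunit that makes AMPA receptors nearly impermeable to calcium once its mRNA is edited. It measured 9.33, 10.9 and 15.7 CPM in flox/flox and 28.5, 34.99 and 61.0 CPM in -/-. All libraries labelled -/- lay above all control libraries, and the rise was 3.46-fold (log2 1.79 ± 0.31 SE, adjusted p = 0.00451 in edgeR). Gria3, on the X chromosome, went the other way, with 40.1, 31.8 and 22.8 CPM against 21.1, 14.9 and 15.2 CPM. Here flox/flox C and -/- A nearly met, and the fall was 1.85-fold (-0.88 ± 0.22, adjusted p = 0.0184). Gria4 rose 1.62-fold, from 8.48, 7.67 and 5.34 CPM to 10.1, 9.87 and 14.99 CPM (0.70 ± 0.22, adjusted p = 0.0463). Gria1, which becomes a major subunit in the mature forebrain and lies on chromosome 11, was at 0.270, 0.266 and 0.319 CPM against 0.407, 0.510 and 1.51 CPM and did not pass (1.44 ± 0.58, adjusted p = 0.0946).

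Per length, Gria3 made up 67.2%, 62.1% and 54.8% of the AMPA subunit RNA in flox/flox and 37.9%, 28.0% and 19.0% in -/-. The Gria2 share went from 15.8% ± 7.27 to 40.8% ± 8.05 (SD, n = 3). For both genes the shares of the groups did not overlap, and 3 libraries against 3 cannot give an exact two-sided permutation p below 0.1, which holds for each of the 51 subunit shares computed. The summed AMPA level overlapped between the groups, as did the small share of Gria1, while the shares of Gria2, Gria3 and Gria4 did not. The call for Gria3 was lost without flox/flox B (adjusted p = 0.0588), -/- B (0.0722) or -/- C (0.0545), within a range of 0.000753 to 0.0722 over its alternatives. That of Gria4 was lost without any single library other than flox/flox A, with limma-voom, and when blocked on the column letter (0.0571, range 0.0128 to 0.100). Without flox/flox B its adjusted p was 0.100, without flox/flox C 0.0934, without -/- A 0.0559, without -/- B 0.0585 and without -/- C 0.0994. Gria1 passed with the block (0.0313) and without -/- A (0.0462), in a range up to 0.268.

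**Figure D3:**
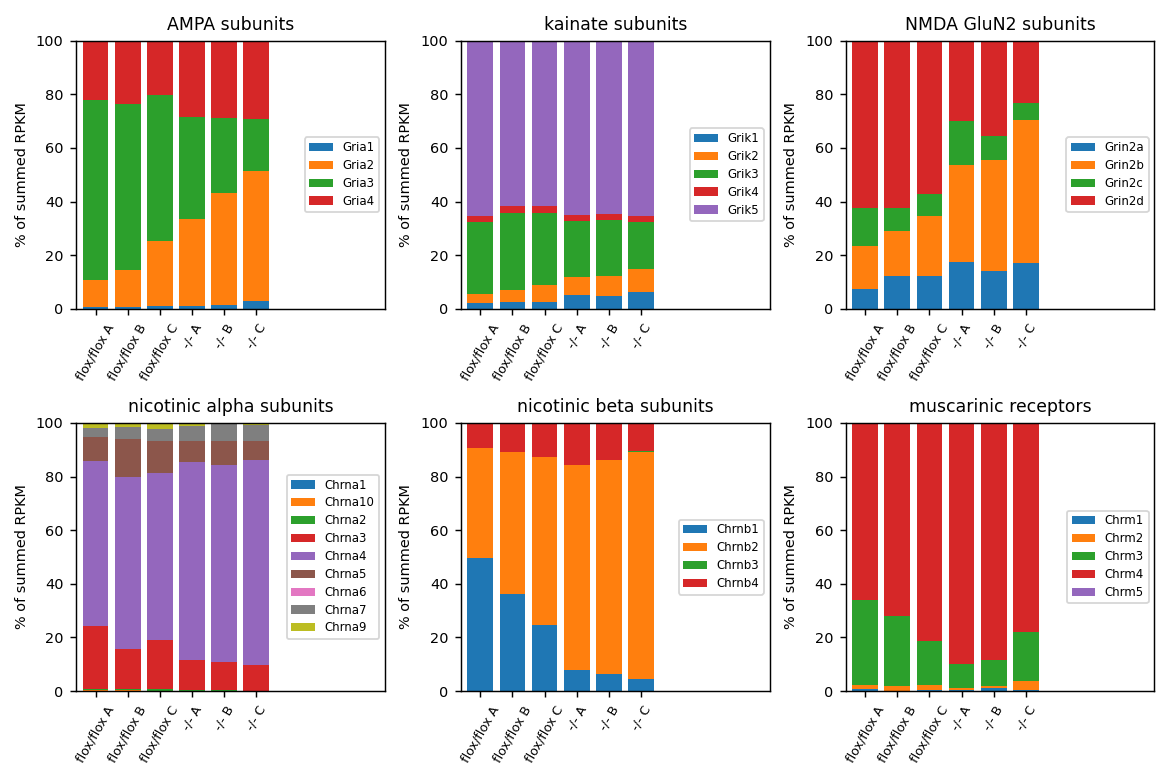
Share of each subunit in the summed RPKM of its family, in percent, as stacked bars for the 6 libraries. In the libraries labelled -/- the shares of Gria2 and Grin2b are larger than in flox/flox, and those of Gria3 and Grin2d smaller. Chrnb1 shrinks from between 24.7% and 49.6% in flox/flox to between 4.41% and 7.82% in -/-.

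Kainate receptors were carried by Grik5 and Grik3. Grik5, a high-affinity subunit that needs a partner to form a channel, had the highest per-length level of the 62 members over the 6 libraries, 11.4 ± 0.843 RPKM in flox/flox and 16.5 ± 2.31 RPKM in -/- (SD, n = 3). Its CPM were 59.7, 54.3 and 62.9 against 76.5, 80.3 and 98.8, without overlap, a rise of 0.53 ± 0.11 (log2, SE, adjusted p = 0.00823 in edgeR). Grik1 and Grik2, low-affinity subunits that can form channels by themselves, rose more. Grik1 went from 2.60, 2.96 and 3.55 CPM to 7.65, 7.54 and 12.5 CPM (3.03-fold, 1.60 ± 0.24, adjusted p = 0.00238). Grik2 went from 7.57, 10.2 and 16.8 CPM to 20.8, 24.3 and 33.6 CPM (2.28-fold, 1.19 ± 0.30, adjusted p = 0.0185), and both sets of libraries were apart. Grik3 was level, with 42.5, 44.0 and 47.6 CPM in flox/flox and 42.8, 45.1 and 45.7 CPM in -/-. Its difference was -0.0051 ± 0.07 and changed sign between alternatives (-0.040 to 0.051). Grik4, the other high-affinity subunit, averaged 2.64 ± 0.334 and 3.10 ± 0.380 CPM without passing (0.23 ± 0.17). Without flox/flox B the call for Grik2 was lost (adjusted p = 0.0736, range over its alternatives from 0.000207).

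NMDA receptors need the obligatory subunit of Grin1 together with subunits of the Grin2 and Grin3 genes. Grin1 rose from 2.16, 2.74 and 1.63 CPM to 3.79, 3.37 and 4.79 CPM (0.86 ± 0.22, log2, SE, adjusted p = 0.0215 in edgeR). Exons of the antisense gene Grin1os overlap 13.5% of the exonic bases of Grin1, and Grin1os rose as well, from 0.903 ± 0.0751 to 1.84 ± 0.217 CPM (SD, n = 3). Because the strand setting of the counting is not given in the sources used here, reads of these genes cannot be told apart where they overlap. Grin2b, the main GluN2 subunit of young cortical neurons, measured 3.58, 3.76 and 5.38 CPM in flox/flox and 8.31, 9.38 and 15.7 CPM in -/-. The 3 libraries labelled -/- were above all controls, with a rise of 2.62-fold (1.39 ± 0.28, adjusted p = 0.00777). Grin2d, expressed early and mostly in the diencephalon and brainstem, fell from 3.75, 3.68 and 3.63 CPM to 1.86, 2.15 and 1.83 CPM. Replicates of Grin2d were close together within both groups, and its fall was -0.92 ± 0.14 (adjusted p = 0.00262).

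The share of Grin2b in the per-length level of the 4 Grin2 genes was 18.6% ± 3.58 in flox/flox and 43.7% ± 8.77 in -/-, and that of Grin2d 60.6% ± 3.14 and 29.6% ± 6.30 (SD, n = 3), in each case without overlap. Grin3a, whose subunit lowers calcium entry, rose from 2.60, 2.36 and 3.19 CPM to 3.99, 4.00 and 6.02 CPM (0.78 ± 0.21, adjusted p = 0.0270 in edgeR). Grin2a, which gains weight after birth, was at 1.73 ± 0.479 and 2.95 ± 0.696 CPM (0.77 ± 0.27, adjusted p = 0.0586). It passed when blocked on the column letter (0.0327), with DESeq2 (0.0416) and with no filter (0.0429), in a range up to 0.144. Grin3b (-0.45 ± 0.17, adjusted p = 0.0771) shares 32.1% of its exonic bases with Tmem259, which stood at 80.0 ± 1.52 and 78.7 ± 7.23 CPM, so its 3.23 to 4.39 CPM on average may hold reads of that neighbour. Grin2c, on chromosome 11, was at 0.473 and 0.515 CPM (0.14 ± 0.38). The call for Grin1 was lost without flox/flox A (0.0581) or -/- C (0.0512), within 0.00469 to 0.0581. That of Grin3a was lost without flox/flox A (0.0749) or flox/flox B (0.0984), from a lowest value of 0.00529.

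Metabotropic glutamate receptors fall into group I, which activates phospholipase C, and groups II and III, which inhibit adenylyl cyclase. Grm5, of group I, was near the detection limit in the controls and rose. It rested on 6, 3 and 1 reads in flox/flox and on 33, 27 and 58 in -/- (log2 change 3.23 ± 0.63 SE, adjusted p = 0.00690 in edgeR). The groups did not overlap in CPM.

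In group II, Grm2, a presynaptic autoreceptor, rose from 9.02, 14.8 and 16.0 CPM to 28.5, 27.4 and 33.1 CPM (2.24-fold, 1.16 ± 0.20, log2, SE, adjusted p = 0.00437 in edgeR). It was the most abundant metabotropic gene per length, at 2.71 ± 0.763 and 6.06 ± 0.612 RPKM (SD, n = 3). Grm3, better known from astrocytes, was at 0.352 ± 0.104 and 1.22 ± 1.04 CPM, the latter mean resting on -/- C (2.39 CPM), and did not pass (adjusted p = 0.0901). In group III the members diverged. Grm4 measured 7.94, 16.1 and 18.5 CPM against 21.1, 25.1 and 33.7 CPM and missed the threshold in spite of groups that did not overlap (0.91 ± 0.31, adjusted p = 0.0524). Grm7 rose from 0.252 ± 0.0970 to 0.534 ± 0.0902 CPM (1.08 ± 0.34, adjusted p = 0.0443). Grm8 fell from 8.82, 11.6 and 8.72 CPM to 7.04, 6.18 and 6.33 CPM (-0.57 ± 0.14, adjusted p = 0.0186), and Grm6, a receptor of retinal ON bipolar cells on chromosome 11, from 1.09 ± 0.446 to 0.491 ± 0.130 CPM (-1.12 ± 0.35, adjusted p = 0.0440).

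Of these metabotropic calls, those of Grm2 and Grm5 passed under every alternative that gave a value for them at the threshold of 0.05. Grm4 passed when blocked on the column letter (adjusted p = 0.00211), without flox/flox C (0.0303), with DESeq2, with limma-voom and with no filter, in a range up to 0.132. Grm3 passed with the block (0.0127), with DESeq2 (0.0320) and without -/- A (0.0243), in a range up to 0.221. The calls for Grm6 and Grm7 were each lost when any single library other than flox/flox C was left out, with ranges of 0.0123 to 0.148 and 0.0306 to 0.140. For Grm6 the values without flox/flox A, flox/flox B, -/- A, -/- B and -/- C were 0.0628, 0.148, 0.0608, 0.114 and 0.109, and its log2 change without flox/flox B was -0.74. For Grm7 they were 0.139, 0.134, 0.0652, 0.101 and 0.105. Grm6 also lost its call with limma-voom (0.0537), and Grm7 with no filter (0.0643) and with DESeq2 (0.140). Grm8 lost its call without flox/flox B (0.0611) or -/- B (0.0768), from a lowest value of 0.00443.

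**Figure D4:**
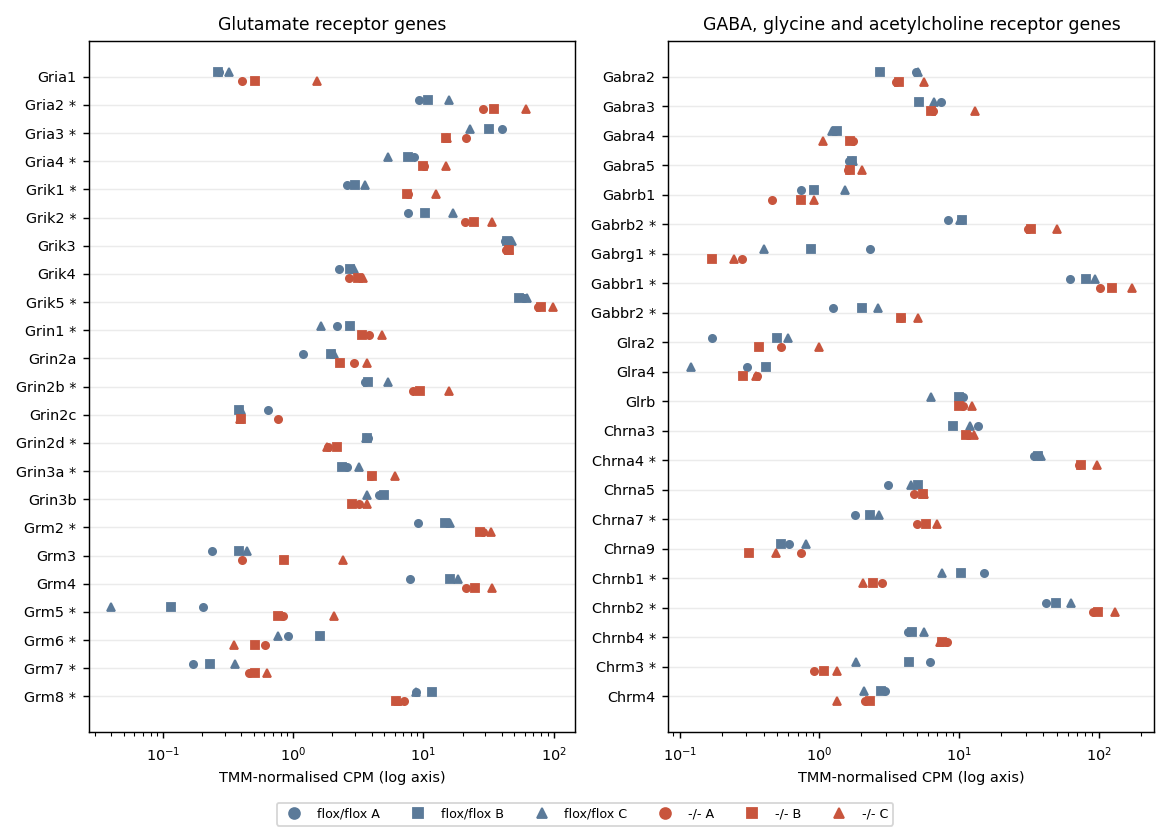
TMM-normalised CPM of the tested receptor genes described here on a log axis, with 1 point per library (circle A, square B, triangle C), flox/flox in blue and -/- in red; an asterisk marks genes past the threshold. The groups are apart for Gabrb2, Gria2 and Chrna4, among others, and coincide for Grik3 and Chrna3.

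GABA-A receptors are usually built from alpha, beta and gamma subunits. Of the 13 GABA-A genes 10 were tested, 3 rose and 1 fell in edgeR. Gabrb2, a beta subunit common in the adult brain, went from 8.38, 10.6 and 10.2 CPM in flox/flox to 31.3, 32.7 and 50.5 CPM in -/-. The lowest -/- library was far above the highest control, and the rise was 3.92-fold (1.97 ± 0.20, log2, SE, adjusted p = 0.000660 in edgeR). The call held under each of the 14 alternative fits at the 0.05 threshold. Gabrb2 lies on chromosome 11, whose tested genes had a median log2 fold change of 0.49. After an offset of 0.516 for this chromosome its change was 1.46 (adjusted p = 0.00244 in edgeR). Of the 9 members on chromosome 11, 7 were tested, 3 rose and 2 fell, and 18 of the 21 rises lay on other chromosomes. Gabra6, a subunit of cerebellar granule cells on the same chromosome, had 0 reads in all 6 libraries.

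In a cluster on chromosome 5 (70751047 to 72149037) Gabra2, Gabra4 and Gabrb1 had differences of 0.01 ± 0.28, 0.22 ± 0.23 and -0.60 ± 0.36 that did not pass, and Gabrg1 fell. Gabrg1 measured 2.30, 0.874 and 0.398 CPM in flox/flox against 0.280, 0.170 and 0.246 CPM (-2.36 ± 0.66, log2, SE, adjusted p = 0.0280 in edgeR). The groups did not overlap, but its controls were widely spread, and without flox/flox A the change was -1.44 (adjusted p = 0.0572). The call was also lost without flox/flox B (0.0515), -/- A (0.0635), -/- B (0.0941) or -/- C (0.0638) and with limma-voom (0.0588), where the lowest value over its alternatives was 0.00323. Gabra5, on chromosome 7, did not pass (0.04 ± 0.17), and Gabrg3 had 53 reads in all, too few to be tested. Gabra3, on the X chromosome, held the largest share of the alpha subunits, 52.8% ± 2.08 in flox/flox and 49.8% ± 5.57 in -/- (SD, n = 3). Its CPM of 7.37, 5.17 and 6.57 against 6.51, 6.32 and 13.0 overlapped (adjusted p = 0.310).

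**Figure D5:**
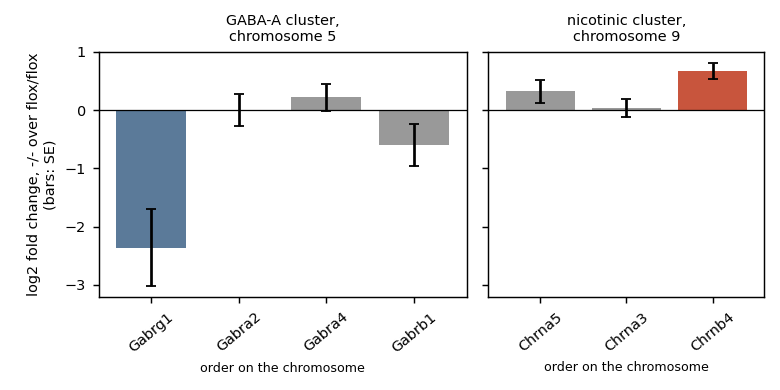
Log2 fold change (-/- over flox/flox, bars show the SE) of the receptor genes in a GABA-A cluster on chromosome 5 and a nicotinic cluster on chromosome 9, in their order along the chromosome, red for a rise, blue for a fall and grey where the threshold was not passed. Gabrg1 (-2.36) and Chrnb4 (0.67) are the only calls among the genes drawn.

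The per-length share of Gabrb2 among beta subunits was 22.6% ± 2.10 in flox/flox and 46.7% ± 1.97 in -/- (SD, n = 3), without overlap. Gabrd, which encodes an extrasynaptic subunit, had 2 reads in all. Both subunits of the GABA-B receptor, an obligate pair, rose. Gabbr1 was abundant, with 62.3, 81.1 and 93.9 CPM in flox/flox and 102, 125 and 174 CPM in -/- (0.76 ± 0.21, log2, SE, adjusted p = 0.0284 in edgeR). Gabbr2 was scarcer, at 1.25, 2.01 and 2.63 CPM against 3.84, 3.86 and 5.10 CPM (1.12 ± 0.27, adjusted p = 0.0154). Neither overlapped between the groups. Per length the first exceeded the second by far in both groups, with 10.2 ± 2.04 against 0.294 ± 0.103 RPKM in flox/flox and 17.3 ± 4.71 against 0.638 ± 0.108 RPKM in -/-. The call for Gabbr1 was lost without flox/flox A (0.0765), flox/flox B (0.0815), -/- B (0.0600) or -/- C (0.0550), from a lowest value of 0.000203. That for Gabbr2 was lost without flox/flox B (0.0548), from a lowest value of 0.000869.

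Glycine receptor RNA was mostly that of Glrb, the beta subunit that anchors the channel to gephyrin. Glrb measured 10.7, 9.91 and 6.25 CPM in flox/flox and 10.6, 10.0 and 12.3 CPM in -/-. The groups overlapped, and the difference of 0.29 ± 0.20 (log2, SE) did not pass (adjusted p = 0.306 in edgeR). Glra2, the alpha subunit of the embryonic brain, and Glra4 were below 1 CPM in every library, with differences of 0.57 ± 0.52 and 0.22 ± 0.42. In edgeR 0 of the 3 tested genes passed, 0 had an unadjusted p under 0.05, and DESeq2 called 1 glycine receptor gene, Glra3. Glra1, on chromosome 11, and Glra3 were not tested at the filter used, with 39 and 32 reads in all. In the library order flox/flox A, B, C and -/- A, B, C they had 3, 2, 2, 14, 7 and 11 reads and 0, 1, 1, 15, 10 and 5 reads, higher in all 3 libraries labelled -/-. With no filter both were called.

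Nicotinic receptors of the brain are mostly built from the products of Chrna4 and Chrnb2, and both genes rose by about the same factor. Chrna4 measured 34.3, 36.8 and 38.8 CPM in flox/flox and 72.4, 74.8 and 97.1 CPM in -/-. The groups were far apart, with a rise of 2.22-fold (1.15 ± 0.12, log2, SE, adjusted p = 0.000688 in edgeR). Chrnb2 measured 41.6, 49.8 and 63.0 CPM against 90.6, 98.3 and 130 CPM (2.07-fold, 1.05 ± 0.18, adjusted p = 0.00437). Exons of Adar overlap 16.3% of the exonic bases of Chrnb2, and Adar was at 94.6 ± 3.98 and 118 ± 5.10 CPM (SD, n = 3), a rise of 0.32 ± 0.06. Chrna7, whose product forms channels of a single subunit type, rose from 1.79, 2.32 and 2.67 CPM to 4.98, 5.81 and 6.90 CPM (2.61-fold, 1.38 ± 0.20, adjusted p = 0.00201).

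Chrna5, Chrna3 and Chrnb4, which together form the ganglionic type of receptor, lie within 67.9 kb on chromosome 9 (54980880 to 55048779). Chrnb4 rose from 4.29, 4.60 and 5.62 CPM to 8.23, 7.57 and 7.25 CPM (1.59-fold, 0.67 ± 0.14, log2, SE, adjusted p = 0.00853 in edgeR). Chrna3 was at 13.7, 9.12 and 12.0 CPM against 11.7, 11.3 and 12.8 CPM, with overlapping groups and a difference of 0.04 ± 0.15 (adjusted p = 0.871). Chrna5 was at 4.23 ± 1.02 and 5.28 ± 0.461 CPM (SD, n = 3), a difference of 0.32 ± 0.19 (adjusted p = 0.238). Whether the responses of the neighbours differ from each other was not tested.

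Chrnb1, the beta subunit of the muscle receptor, fell, and lies on chromosome 11. It measured 15.2, 10.3 and 7.49 CPM in flox/flox and 2.80, 2.44 and 2.04 CPM in -/-. The lowest control exceeded the highest -/- library, and the fall was 4.51-fold (-2.17 ± 0.27, log2, SE, adjusted p = 0.00126 in edgeR, and -2.69 with the chromosome 11 offset). Its share of the nicotinic beta subunits per length went from 36.8% ± 12.4 to 6.25% ± 1.72 (SD, n = 3). The other subunits of the muscle receptor were at background: Chrna1 had 7 reads in all, and Chrnd, Chrne and Chrng, which the symbol rule leaves out, stood at 0.0760 CPM or less in every library. The myogenic factor genes Myod1, Myog, Myf5 and Myf6 reached at most 0.246 CPM. Of the 11 muscle and mesoderm markers 3 fell together with Chrnb1: Actc1 from 3.71 ± 0.476 to 1.26 ± 0.390 CPM, T from 41.9 ± 6.22 to 25.4 ± 6.17 CPM and Pax7 from 10.9 ± 1.397 to 6.53 ± 1.63 CPM (SD, n = 3). The other tested genes of the list, Des, Ttn and Tbx6, did not pass (log2 changes of -0.80, -0.15 and 0.42). The summed level of the list, mostly that of T, was 57.2 to 69.8 CPM in flox/flox and 34.2 to 44.4 CPM in -/-. The part of these markers in the fall of Chrnb1 was not tested. Chrna9, a subunit of inner ear hair cells, averaged 0.646 and 0.514 CPM without passing (-0.31 ± 0.36). Chrna2, Chrna10, Chrnb3 and Chrna6 had 25, 6, 4 and 1 reads in all and were not tested. Chrnb3 and Chrna6 adjoin each other on chromosome 8. Of the exonic bases of Chrna10, 39.0% lie under exons of Art1. The calls of Chrna4, Chrnb2, Chrna7, Chrnb4 and Chrnb1 held under all 14 alternative fits at the 0.05 threshold.

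Among muscarinic receptors Chrm3, which couples to phospholipase C, fell, and 0 rose. Chrm3 measured 6.18, 4.37 and 1.83 CPM in flox/flox and 0.915, 1.08 and 1.34 CPM in -/-. The groups did not overlap, but the controls were widely spread (log2 change -1.91 ± 0.42 SE, adjusted p = 0.0116 in edgeR). Chrm4, an inhibitory receptor, had the highest per-length level of the family, 1.81 ± 0.329 and 1.34 ± 0.357 RPKM (SD, n = 3), with overlapping groups (-0.43 ± 0.24, adjusted p = 0.212). Chrm1 and Chrm2 had 13 and 36 reads in all and Chrm5 had 0, so that these genes were not tested.

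Among the members described here, in order of their per-length level over all 6 libraries, Grik5 (13.9 RPKM), Gabbr1 (13.7 RPKM), Chrna4 (11.8 RPKM) and Chrnb2 (9.41 RPKM) came first, followed by Grik3 (4.97 RPKM), Grm2 (4.39 RPKM) and Gabrb2 (3.76 RPKM). Within flox/flox Grik5 (11.4 ± 0.843 RPKM) and Gabbr1 (10.2 ± 2.04 RPKM) did not differ beyond their spread, and Grik3 stood at 4.98 ± 0.295 RPKM. A mean of at least 1 RPKM was reached by 22 of the 62 members. Gabrb2 stood at 1.53 ± 0.184 RPKM in flox/flox and at 6.00 ± 1.68 RPKM in -/- (SD, n = 3).

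Genes that assemble, anchor or supply these receptors were examined in 8 lists with 80 entries, of which 26 rose, 11 fell and 10 were not tested. Over all tested genes 17.9% rose and 17.4% fell, and the median log2 fold change was 0.32 for the 70 tested entries against -0.0025 for all genes. The falls over the 8 lists lie near that background. Auxiliary proteins of AMPA and kainate receptors rose in 6 of 17 genes and fell in 1. Olfm3 (3.28-fold) and Shisa6 (1.52-fold) rose, Shisa9, a modulator of AMPA receptors, fell 3.17-fold, and Cacng3, a transmembrane AMPA receptor regulatory protein gene, came up from 0.0133 ± 0.0230 to 0.515 ± 0.195 CPM (SD, n = 3). Shisa6 lies on chromosome 11, and its log2 change of 0.61 is near the median of 0.49 over the tested genes of that chromosome. Postsynaptic scaffold genes rose in 5 of 20 and fell in 3, with a median of 0.26, both counts not far from the background. The neuroligin genes Nlgn1 and Nlgn2, whose products organise excitatory and inhibitory synapses, rose 5.52-fold and 2.24-fold (the latter on chromosome 11), and Shank2 rose 3.34-fold. Dlg1, Nlgn3 and Homer1 fell 1.86-fold, 1.79-fold and 1.22-fold. Exons of another gene overlap 41.2% of the exonic bases of Nlgn3. Rapsn, the anchor of the muscle receptor, was at 1.62 CPM or less in every library and did not pass. Adjusted p in edgeR for the scaffold genes named as rising or falling lay between 0.000707 (Nlgn2) and 0.0205 (Homer1).

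The nicotinic chaperone and Ly6 list held 3 rises and 4 falls among 8 genes. Ric3 and Tmem35a, chaperones needed for the assembly of Chrna7 channels, rose 1.97-fold and 1.56-fold, and Lypd1 3.83-fold. Ly6e, Lypd6 and Lynx1 fell 1.61-fold, 2.04-fold and 1.58-fold (adjusted p between 0.00158 and 0.0350 in edgeR). In the glutamate list 3 of 8 genes rose and 1 fell: Slc17a6, the vesicular transporter of subcortical and young glutamatergic neurons, rose 2.09-fold, the uptake gene Slc1a2 2.74-fold and Glul 1.24-fold, and Slc1a1 fell 2.48-fold. Of 9 genes for GABA and glycine 5 rose and 1 fell. Gad2, a GABA-synthesising enzyme, rose from 0.645 ± 0.517 to 6.54 ± 3.71 CPM (SD, n = 3), the vesicular transporter gene Slc32a1 7.90-fold and Abat 1.30-fold, while the uptake gene Slc6a11 fell 4.45-fold. Exons of other genes overlap 31.9% of the exonic bases of Slc1a1 and 24.9% of those of Slc32a1. For acetylcholine the hydrolases Ache (1.93-fold) and Bche (4.23-fold) rose and 0 of 5 genes fell. Chat, which makes acetylcholine, stood at 0.152 CPM or less in every library. The chloride exporter gene Slc12a5 rose 1.45-fold and the importer gene Slc12a2 fell 1.27-fold, a pair whose balance sets the direction of GABA currents. Of 11 subunit genes of the same families outside the symbol rule 1 rose, Gabrq, from 0.370 ± 0.129 to 1.53 ± 0.545 CPM.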

How the data were processed

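RNA of 6 libraries was made with a stranded mRNA kit from 1 µg per the labels' protocols. Per the submitters' processing notes the authors used BWA 0.5.9 and featureCounts 1.4.6 with mm10 (GRCm38), and they deposited raw read counts for each Ensembl gene. The sources used here give neither the annotation release nor the strand setting, nor how multiply mapped reads and marked duplicates were handled. Columns carry the genotype and a letter, so each was placed in its group without a sample number. Symbols, positions and exon lengths came from GENCODE M21 (48058 of 48526 identifiers matched), and promoters from RefSeq (GRCm38.p6).

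Counts were tested in R 4.3.3 with edgeR 4.0.16 (TMM, filterByExpr with a minimum count of 10 and a minimum total of 15, glmQLFit and glmQLFTest on the group, two-sided), adjusted by Benjamini-Hochberg over 20549 genes, with a threshold of 0.05. The SE is the log2 fold change divided by the square root of the F statistic. CPM use the TMM library sizes, and RPKM divide them by the union of exons. The scripts were tested on simulated data. Alternatives were other scaling, filters and thresholds, DESeq2 1.42.0, limma-voom (limma 3.58.1), a block on the column letter, each library left out, and an offset for chromosome 11.

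Deviations of same-letter libraries of the groups correlated weakly (0.275 for A, 0.101 for B and 0.264 for C over tested genes). No label states a pairing, so the main test used the group alone. A block on the letter was fitted only as an alternative. Libraries of a group differed by more than sampling noise (chi-square per gene between 5.47 and 29.8) and entered as separate samples.

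Members that passed with a mean of at least 1 CPM, and the 6 not passing with the highest mean RPKM, are given by library, the others by their mean or range, and up to 3 genes per direction in each pathway list. Library values of Gria1, Gabrg1, Grm5, Glra1 and Glra3, and the mentions of Rapsn, Chat and more than 3 muscle markers, were chosen after their values were seen. A few members of the counts and sums are not reported here by name. The members and lists were chosen with earlier results of these data known. The marker lists covered neurons, neural progenitors, glia, muscle and mesoderm, neural crest and peripheral neurons, and pluripotency.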

Additional observations from a re-analysis of the deposited data

How the results depend on the processing

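Of the 28 receptor genes called, 17 (14 rises and 3 falls) kept their call at the threshold of 0.05 in every alternative fit that gave a value for them, and 0 changed sign. Leaving out 1 library gave 15 to 22 rises and 3 to 7 falls among receptor genes, and 2315 to 3510 rises and 2342 to 3336 falls over all genes. By transmitter these ranges were 8 to 12 and 1 to 4 for glutamate, 3 to 6 and 0 to 1 for GABA, 0 to 1 and 0 to 0 for glycine, and 4 to 4 and 2 to 2 for acetylcholine. Glycine receptor rises numbered 2 with no low-count filter and 1 with DESeq2. GABA receptor falls numbered 0 with the 1 CPM filter and with limma-voom. With the adjusted p threshold of 0.01, 7 glutamate and 3 GABA receptor genes rose, 1 glutamate, 0 GABA and 1 acetylcholine receptor gene fell (2 in all), and 1992 of all genes rose and 1895 fell, the smaller counts following from the stricter threshold. With the column letter as a replicate block 25 receptor genes rose and 7 fell, and no call of a gene described here changed other than those given beside Gria4, Gria1, Grin2a, Grm3 and Grm4.

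Sign changes occurred only in genes without a call. Leaving out 1 library gave log2 changes of -0.23 to 0.15 for Gabra2, -0.052 to 0.11 for Gabra5, -0.11 to 0.18 for Chrna3, -0.28 to 0.43 for Grin2c, -0.040 to 0.051 for Grik3 and -0.11 to 0.59 for Glra4. Gabra2 was at -0.0034 with upper-quartile scaling, Grin2c at -0.38 with the chromosome 11 offset, and Grik3 at 0.014 with no filter and 0.00033 with DESeq2. The cause was not tested. With the longest transcript as length 25 members reached 1 RPKM. Genes with few reads, such as Gria1, Grm3 and Gabrg1, had the widest errors.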

Other observations

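Receptors of other transmitters, selected by symbol after the data had been seen, are given here. Of 67 such genes (serotonin, dopamine, adrenergic, histamine, purine, opioid, cannabinoid, somatostatin and neuropeptide Y receptors) 26 had enough reads to be tested, 6 rose and 5 fell in edgeR at an adjusted p under 0.05. These counts lie near the 17.9% and 17.4% of all tested genes that rose and fell, so they are no result about these receptors as a group, and the genes below are given as single values. Adora1, the inhibitory adenosine receptor, rose from 1.66, 1.67 and 2.15 CPM in flox/flox to 6.53, 8.28 and 4.68 CPM in -/-. Sstr2, a somatostatin receptor on chromosome 11, rose from 0.338, 0.304 and 0.677 CPM to 2.16, 2.49 and 3.41 CPM. The serotonin receptor genes diverged: Htr2c rose by 2.83 ± 0.43 and Htr1d by 1.60 ± 0.47, and Htr1b fell by 1.45 on the log2 scale. Drd2 and the autoreceptor gene Hrh3 also rose (1.82 ± 0.36 and 1.24 ± 0.29). The purine receptor gene P2ry1 fell from 12.2, 13.7 and 13.1 CPM to 7.98, 6.44 and 4.96 CPM. The adrenergic receptor genes Adra2b and Adrb3 fell by 1.35 and 1.09 on the log2 scale. Exons of other genes overlap 23.1% of the exonic bases of P2ry1, 24.9% of those of Adrb3 and 20.1% of those of Adora1. Of the 3 opioid receptor genes 0 had enough reads to be tested.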
